A study of Mus musculus with 2 samples.

Results

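Footprints are short stretches inside open chromatin where DNase I, an enzyme that cuts accessible DNA, cut less often than in the bases beside them. The wide footprints described here are those of 25 bp or more that overlapped, by at least 1 bp, a footprint of any width in the other of 2 libraries, on chromosomes 1 to 19. There were 8081 of them among 109559 footprints in replicate 1 and 14541 among 255572 in replicate 2. Merged over both libraries they made 16357 loci. Of these, 6265 were wide in both libraries, 1816 in replicate 1 alone and 8276 in replicate 2 alone. The comparison set is the footprints under 15 bp that also overlapped a footprint of the other library, 41101 in replicate 1 and 27659 in replicate 2. The members were chosen by measured width and overlap, so neither is a result here.

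Both libraries came from the cerebellum of male B6CASTF1/J mice aged 4 days, an F1 hybrid strain, and each label names 3 males. They form 1 group, P4 cerebellum, and are numbered as biological replicates 1 and 2, with the same donor entry given for both. The tissue was whole and no agent or engineered allele is named. Every statement below compares wide with short footprints inside each library. With 2 libraries, a two-sided exact permutation test over the 2 within-library differences cannot give a p below 0.5, so differences are given per library, as mean ± SD over 2 libraries, and by whether both had the same sign. Footprints of 1 library share their source and are not replicates. Promoter peaks at marker genes were checked against the labelled tissue. En2, a regional gene of the midbrain and hindbrain, had peak values of 1.46 and 1.06, Zic1, a gene of granule cell progenitors, 1.72 and 0.705, and Neurod1, a gene of granule neurons, 1.48 and 1.82, in replicates 1 and 2. Atoh1, a gene of granule cell progenitors, had 0.587 and 0.492, below the median peak values of 0.787 and 0.625 of these libraries. No promoter peak stood at Alb, the liver albumin gene, or at Myod1, the myoblast regulator, in either library.

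A protein bound to DNA shields its bases from DNase I, so the length of a footprint reflects how much DNA is covered. Most transcription factors contact a short sequence and leave short footprints. CTCF, a zinc finger protein that sits at loop anchors and insulators together with cohesin, reads an unusually long sequence. Its central zinc fingers read a core sequence, and its terminal fingers read a second sequence upstream of the core at a fraction of sites. Promoters of broadly expressed genes hold sites of several factors close together, among them NFY at the CCAAT box, NRF1, CREB-family proteins at the cAMP response element (CRE), ETS proteins and the SP and KLF proteins at the GC box.

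The sequences of 3 members follow, with matches to the CTCF core in capitals. The first 2 show the width classes described next, and the third is a rare case. They are the mm10 reference, from RefSeq, on the plus strand, and not the sequence of the hybrid's 2 parental alleles. The first, at chr2:127889574-127889603 in an intron, is nearest to Acoxl, an acyl-CoA oxidase-like gene. It had the highest peak value in replicate 1 of 24 members of 30 bp with an exact core, no upstream sequence and the same ends in both libraries. The second, at chr1:151706261-151706305, also intronic, is nearest to Edem3, a gene of glycoprotein degradation in the endoplasmic reticulum. It has the core on the minus strand, and the second run of capitals is the upstream sequence, 8 bp from the core, found with 1 mismatch allowed. The third, at chr10:77130730-77130794 in an intron and nearest to Col18a1, which encodes a basement membrane collagen, holds 2 cores, found with 1 mismatch allowed. Its footprint was 65 bp in replicate 2 and was not wide in replicate 1. Members with 2 cores inside numbered 0 of 8081 in replicate 1 and 2 of 14541 in replicate 2.
Acoxl, 30 bp, core alone: accaaCCACCAGAGGGCagcaaagaccaat
Edem3, 45 bp, core and upstream sequence: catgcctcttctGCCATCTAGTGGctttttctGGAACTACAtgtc
Col18a1, 65 bp, 2 cores: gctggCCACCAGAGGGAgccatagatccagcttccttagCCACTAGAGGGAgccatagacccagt

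The peak value is the signal the authors deposited for the peak that covers a footprint, and it is compared only within a library. The Acoxl locus had a peak value of 3.61 in replicate 1 and 3.96 in replicate 2, and its core left 5 bp of footprint on its 5′ side and 13 bp on its 3′ side. The Edem3 locus had peak values of 1.54 and 3.38, with 21 bp on the 5′ side of its core and 12 bp on the 3′ side. The extra length of the 45 bp footprint was thus on the side of the upstream sequence. The Col18a1 locus had peak values of 3.41 and 5.97.

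Wide footprints held the CTCF core far more often than short ones. The core, 12 bases long, was searched on both strands of the 51 bp window centred on each footprint. An exact match was in 25.1% of wide and 2.92% of short footprints in replicate 1, and in 16.7% of wide and 3.28% of short footprints in replicate 2. Over all footprints the shares were 4.39% and 2.83%. The wide minus short difference was 17.8 ± 6.24 percentage points (SD, n = 2 libraries), with the same sign in both.

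With at most 1 mismatch, a setting chosen after the data were seen, the core was in 58.8% of wide and 9.77% of short footprints in replicate 1. In replicate 2 it was in 39.1% of wide and 11.5% of short footprints. All footprints stood at 12% in replicate 1 and 8.91% in replicate 2. Unless an exact match is named, a core below means at most 1 mismatch. The core lay on the plus strand in 49.1% and 49.3% of the members that had one, so neither orientation prevailed.

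Distance from protein-coding starts separated members with a core from members without one. Among wide footprints over 1000 bp from any protein-coding transcript start, 70.4% in replicate 1 and 60.3% in replicate 2 held a core, against 18.9% and 19.6% of short footprints there. Within 500 bp of a start the shares were 17.7% and 7.48% of wide and 1.68% and 1.92% of short footprints. Of the wide footprints far from starts without such a core, another 57.9% and 40.2% matched with 2 mismatches. With at most 2 mismatches, 87.5% and 76.3% of wide footprints far from starts matched, against 30.3% and 31.4% of short ones there. So loose a match was also common in short footprints, and it is not taken here as a CTCF site.

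Members fell into width classes that differed in how far they reached beyond the core. Among footprints with a core, counts per width had their highest values at 30 bp in replicate 1 and 29 bp in replicate 2. A second rise was highest at 40 bp in replicate 1 and at 43 bp in replicate 2, with lower counts between. The share with a core was 64.1% in replicate 1 and 43.1% in replicate 2 for footprints of 28 to 30 bp. It was 65.3% and 46.1% at 31 to 33 bp, and 60.3% and 47.8% at 42 to 45 bp. Members of 50 bp or more, 18 in replicate 1 and 132 in replicate 2, held a core in 11.1% and 18.9%.

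The 2 width classes differed in extent mainly on the 5′ side of the core. Members of 25 to 33 bp with a core extended a median of 5 bp beyond its 5′ end and 12 bp beyond its 3′ end in both libraries. Members of 38 to 49 bp extended 21 bp on the 5′ side in both libraries, and 10 bp and 11 bp on the 3′ side in replicates 1 and 2. The 5′ extent was 5 bp and 6 bp at 31 to 33 bp and 20 bp in both libraries at 38 to 41 bp. Between them, at 34 to 37 bp, it was 11 bp and 8 bp, with quartiles of 6 bp and 18 bp in replicate 1 and of 6 bp and 16 bp in replicate 2. The core lay wholly inside the footprint in 98.1% and 97.6% of the members that had one.

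The added stretch of the wider class often held the known upstream sequence of CTCF, written TGCANTNCC. It was searched 7 to 9 bp 5′ of the core on the strand of the core with 1 mismatch allowed, a search added after the data were seen. It was found beside 50.1% of cores in members of 38 to 49 bp and 9.05% in members of 25 to 33 bp in replicate 1. In replicate 2 the shares were 40.7% and 6.88%. Short footprints with a core in their window, of which 2.44% and 1.73% covered the core whole, had it in 13.99% and 16.64%. Where the upstream sequence was present, its spacing to the core was 8 bp in 84.4% and 81.5% of members.

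Single bases of the stretch, letters of the sequence searched above, restated the contrast between the width classes and were not separate evidence for it. The base 12 bp before the core, within the upstream sequence, was T in 84.7% of members of 38 to 49 bp and 45.4% of those of 25 to 33 bp in replicate 1, and in 77.1% and 43.0% in replicate 2. At 16 bp before the core, G stood in 80.4% and 40.97% in replicate 1 and in 74.2% and 37.9% in replicate 2. Members with the upstream sequence had a median width of 36 bp in replicate 1 and 39 bp in replicate 2, against 30 bp in both for members with a core and no upstream sequence. The median peak value was 1.84 with and 1.90 without the upstream sequence in replicate 1, and 2.66 with and 2.79 without it in replicate 2. Members with a core had a median peak value of 1.57 at 25 to 27 bp, 2.07 at 31 to 33 bp, 1.83 at 34 to 37 bp and 2.80 at 46 to 49 bp in replicate 1. In replicate 2 these medians were 2.22, 3.03, 2.92 and 4.34.

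**Figure D1:**
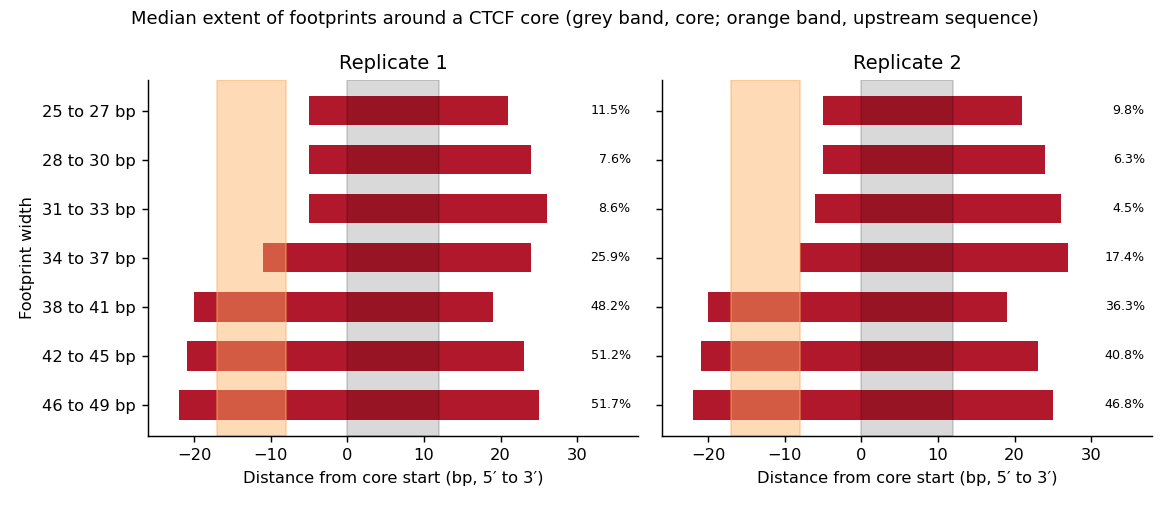
Median extent of wide footprints around a CTCF core of at most 1 mismatch, in bp from the first base of the core (grey band), by width class and library, with the place of the upstream sequence at a spacing of 8 bp (orange band). The percentages are the shares of cores with the upstream sequence. Classes up to 33 bp reach 5 or 6 bp before the core, and classes from 38 bp reach 20 to 22 bp.

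The next sequences show loci with matches to other consensus sequences, each the widest locus wide in both libraries with that match outside annotated untranslated regions. Each stretch merges the overlapping footprints of both libraries, so a match need not lie inside the footprint of each library. Capitals mark the match, on either strand. Ccdc66, a gene of a ciliary and centrosomal protein, has its locus at chr14:27508493-27508560. Btrc, which encodes an F-box subunit of a ubiquitin ligase, has its locus at chr19:45363660-45363717. The locus of Bdp1, a subunit of the RNA polymerase III factor TFIIIB, is at chr13:100104084-100104127. Atp5b, the catalytic beta subunit of ATP synthase, has its locus at chr10:128083213-128083270. The locus of Utp3, a ribosome biogenesis gene known from yeast, is at chr5:88554297-88554351. Acat1, a mitochondrial enzyme of ketone metabolism, has its locus at chr9:53610411-53610456. Aanat, an enzyme of melatonin synthesis, has an intronic locus at chr11:116592602-116592657, the widest with an exact CTCF core.
Ccdc66, 2 CCAAT boxes: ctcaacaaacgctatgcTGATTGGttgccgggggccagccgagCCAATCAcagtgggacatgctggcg
Btrc, NRF1: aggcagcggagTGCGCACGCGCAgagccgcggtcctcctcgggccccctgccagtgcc
Bdp1, CRE: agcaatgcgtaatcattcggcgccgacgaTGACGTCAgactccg
Atp5b, GC box: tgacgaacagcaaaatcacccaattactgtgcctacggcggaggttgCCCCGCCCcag
Utp3, ETS: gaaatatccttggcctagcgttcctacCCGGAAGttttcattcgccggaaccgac
Acat1, NFI palindrome: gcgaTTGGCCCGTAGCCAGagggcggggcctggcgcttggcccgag
Aanat, CTCF core: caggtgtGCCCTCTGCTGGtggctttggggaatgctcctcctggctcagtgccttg

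Each of these loci covered more than its match. The Ccdc66 locus, 68 bp with 2 CCAAT boxes in opposite orientation, was 41 bp in replicate 1 and 68 bp in replicate 2, with peak values of 7.66 and 11.8, and lay 33 bp from a start. The Btrc locus, from footprints of 28 bp in replicate 1 and 54 bp in replicate 2, had peak values of 7.62 and 18.2 and lay 17 bp from a start. The Bdp1 locus, 14 bp from a start, had peak values of 3.799 and 5.37, and the Atp5b locus, 3 bp from a start, had 3.97 and 12.1. The footprints of the Bdp1 locus were 41 bp and 44 bp in replicates 1 and 2. Those of the Atp5b locus, 58 bp when merged, were 46 bp and 43 bp, and its GC box lay inside the footprint of 1 library alone. The Utp3 locus had 3.32 and 9.35 and the Acat1 locus 3.85 and 6.39. Their footprints in replicates 1 and 2 were 41 bp and 55 bp at Utp3 and 26 bp and 46 bp at Acat1. The Aanat locus, 1030 bp from the nearest start, had peak values of 6.33 and 6.13 and footprints of 42 bp and 56 bp.

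Near starts, several promoter sequences were more frequent in wide than in short footprints in both libraries. The CRE, TGACGTCA, was in 3.06% and 2.62% of wide windows within 500 bp of a start in replicates 1 and 2, and in 1.09% and 1.05% of short ones. The CCAAT box, searched as CCAATCA, was in 4.00% and 4.13% of wide and 2.77% and 2.39% of short windows. NRF1 matches were in 1.88% and 2.26% of wide and 1.04% and 0.787% of short windows. The shares over all footprints near starts were 1.05% and 0.787% for the CRE, 2.35% and 2.08% for the CCAAT box, and 0.966% and 0.769% for NRF1.

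The GC box and the ETS sequence had no common direction of wide against short footprints in the 2 libraries. GGGCGGGG was in 9.70% of wide and 13.7% of short windows near starts in replicate 1, and in 17.5% of wide and 9.17% of short windows in replicate 2. CCGGAAG, the ETS sequence, was in 5.47% of wide and 4.39% of short windows in replicate 1, and in 4.12% and 4.64% in replicate 2. Over all footprints near starts the shares were 10.9% and 9.75% for the GC box and 3.78% and 3.34% for ETS. Against all footprints, wide ones were thus higher in both libraries for ETS, and in replicate 2 alone for the GC box. Of 42 sequences searched within 500 bp of a start, 15 were more frequent in wide footprints in both libraries and 10 less frequent in both.

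Other searched sequences share letters with the CTCF core, so their shares far from starts were taken with and without windows that held a core. CAGCAGG, a ZIC-family sequence, was in 11.4% and 10.2% of wide and 5.26% and 5.52% of short windows over 1000 bp from a start. In windows without a CTCF core it was in 3.13% and 3.20% of wide and 3.76% and 3.81% of short ones. The neural E-box CAGATG, which can lie inside the core, was in 7.31% and 7.05% of wide and 5.65% and 5.47% of short windows. Without a core it was in 5.60% and 4.57% of wide and 4.87% and 5.01% of short windows, so its direction differed between libraries. The E-box CAGCTG was less frequent in wide footprints in both libraries, with 3.79% and 5.04% of wide and 6.22% and 6.33% of short windows without a core.

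The NFI palindrome, a pair of sites facing each other and read by a dimer of nuclear factor I proteins, was more frequent in wide footprints once windows with a CTCF core were left out. It was in 2.03% and 2.61% of wide and 1.22% and 1.29% of short windows over 1000 bp from a start. With those windows kept, it was in 0.601% and 1.04% of wide and 1.00% and 1.04% of short windows. The single NFI site TTGGCA, without a core in the window, was in 4.89% of wide and 6.89% of short windows in replicate 1 and in 7.68% and 6.82% in replicate 2. Over 1000 bp from a start and without a core, 13 of the 42 sequences were more frequent in wide footprints in both libraries and 18 less frequent in both.

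**Figure D2:**
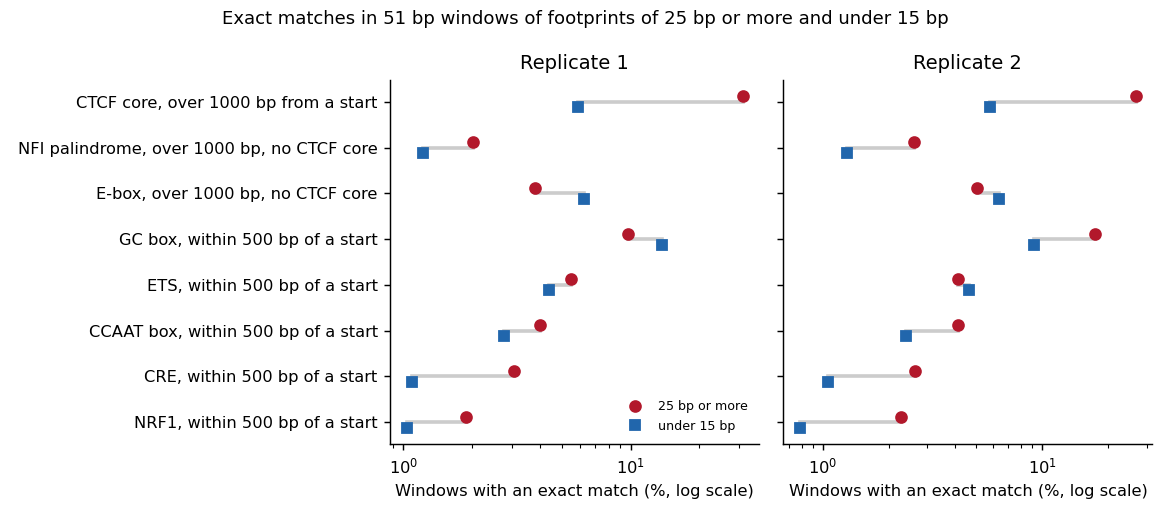
Share of 51 bp windows with an exact match (percent, log scale) for wide (red circles) and short (blue squares) footprints in each library, for sequences searched far from starts or near them; windows with a CTCF core of at most 1 mismatch were left out where stated. The CTCF core, the NFI palindrome, the CCAAT box, the CRE and NRF1 are to the right for wide footprints in both libraries; the GC box and ETS change sides.

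Wide footprints lay farther from protein-coding starts than the overlapping short ones in both libraries. The median distance to the nearest protein-coding start was 11560 bp for wide and 475 bp for short footprints in replicate 1, and 3986 bp and 1626 bp in replicate 2. Within 500 bp of a start lay 21.05% of wide and 50.3% of short footprints in replicate 1, against 41.7% of all its footprints. In replicate 2 it was 38.6% of wide and 43.2% of short footprints, against 29.4% of all. The difference of wide minus short was -16.9 ± 17.5 percentage points (SD, n = 2) and negative in both libraries. The sign in replicate 2 depended on the comparison set: against all footprints under 15 bp, overlapping or not, of which 43.4% in replicate 1 and 26.6% in replicate 2 lay near a start, the differences were -22.4 and 11.96 points in replicates 1 and 2.

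Intergenic positions held 44.5% of wide and 26.3% of short footprints in replicate 1, and 34.3% and 30.04% in replicate 2. Introns held 30.05% and 19.8% in replicate 1 and 23.7% and 22.8% in replicate 2. Exons away from starts held 4.36% of wide and 3.51% of short footprints in replicate 1 and 3.43% and 3.98% in replicate 2. Of the footprints with a CTCF core, 6.34% of wide ones in replicate 1 and 7.39% in replicate 2 were within 500 bp of a start. The scarcity of cores near starts was not particular to wide footprints. Of all footprints, 2.26% and 1.90% of those within 500 bp of a start held a core, and 20.3% and 12.3% of those over 1000 bp away.

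Near starts, wide footprints lay mostly on the upstream side. Of the members within 500 bp of a start, 80.8% in replicate 1 and 77.5% in replicate 2 were upstream of it, against 67.2% and 62.9% of short footprints. Their median position was -52 bp and -49 bp, and that of short footprints -33 bp and -25 bp. The first 25 bp downstream of the start held 6.19% of the wide and 11.1% of the short footprints near starts in replicate 1, and 8.77% and 11.9% in replicate 2.

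**Figure D3:**
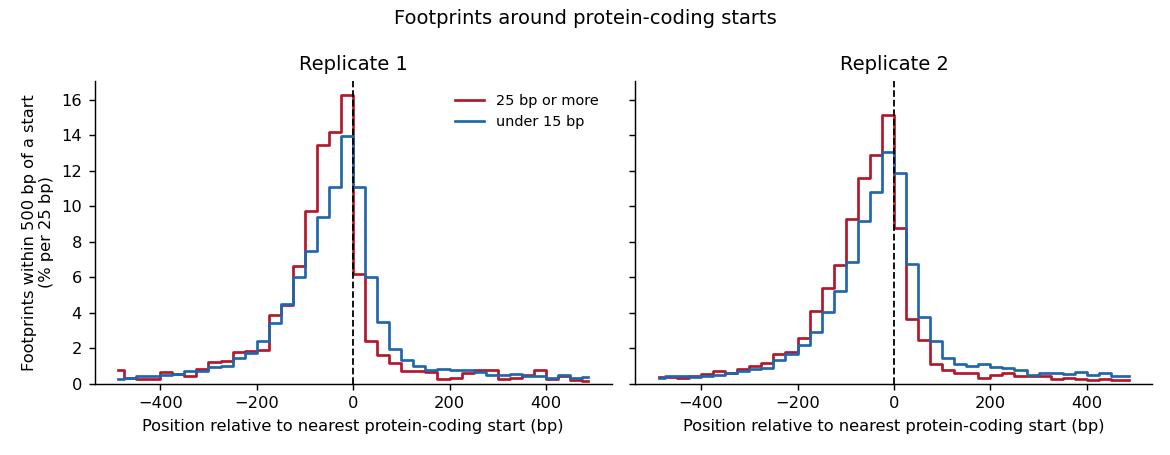
Position of wide (red) and short (blue) footprints within 500 bp of the nearest protein-coding start, in percent per 25 bp, for each library; negative positions are upstream. The wide curve is higher just upstream of the start, at a median of -52 bp and -49 bp, and lower downstream.

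Base content differed in opposite directions near and far from starts. Wide footprints had 63.0% G or C in replicate 1 and 65.3% in replicate 2, against 67.8% and 66.1% for short ones. Within 500 bp of a start they were lower in both libraries, by a mean difference of -3.71 ± 2.92 percentage points (SD, n = 2). Over 1000 bp from a start they were higher in both, by 0.85 ± 0.19 points. CpG dinucleotides were at 5.07 and 6.71 per 100 bp in wide and 7.38 and 6.92 per 100 bp in short footprints. Bases soft-masked as repeats in the reference were 6.68% and 7.08% in wide and 7.51% and 7.18% in short footprints.

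Wide footprints stood in stronger peaks. The median peak value was 2.10 for wide and 1.75 for short footprints in replicate 1, and 3.92 and 2.33 in replicate 2, a log2 ratio of 0.50 ± 0.35 (SD, n = 2). With the stricter deposited peak list the log2 ratio was 0.017 in replicate 1, where the difference nearly vanished, and 0.677 in replicate 2. Within 500 bp of a start the medians were 3.796 and 2.50 in replicate 1 and 8.01 and 4.15 in replicate 2. Over 1000 bp from a start they were 1.84 and 1.18, and 2.81 and 1.65. Peak value did not rise steadily with width. At 23 and 24 bp its median was 1.77 in replicate 1 and 4.03 in replicate 2. At 25 and 26 bp it was 1.75 and 3.70. The part of peak value in width was not tested. Of wide footprints 99.4% and 97.8% lay in a peak, against 94.1% and 93.3% of short ones.

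Members sat near the middle of their peaks. The median offset from the peak's midpoint was 9 bp for wide and 38.5 bp for short footprints in replicate 1, and 16.5 bp and 38.5 bp in replicate 2. A wide footprint was the only footprint of its peak in 19.9% and 6.22% of cases, and a short one in 8.69% and 4.26%. Over all footprints the shares were 15.5% and 14.4%, so wide ones stood above this in replicate 1 and below it in replicate 2. Within 500 bp of a start the shares were 5.46% and 0.80% for wide and 5.34% and 2.16% for short footprints. Among members, those with a CTCF core had lower peak values than those without, with medians of 1.89 and 2.65 in replicate 1 and 2.77 and 5.77 in replicate 2. Far from starts the 2 kinds were close in replicate 1, at 1.83 and 1.91, and were 2.69 and 3.13 in replicate 2.

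**Figure D4:**
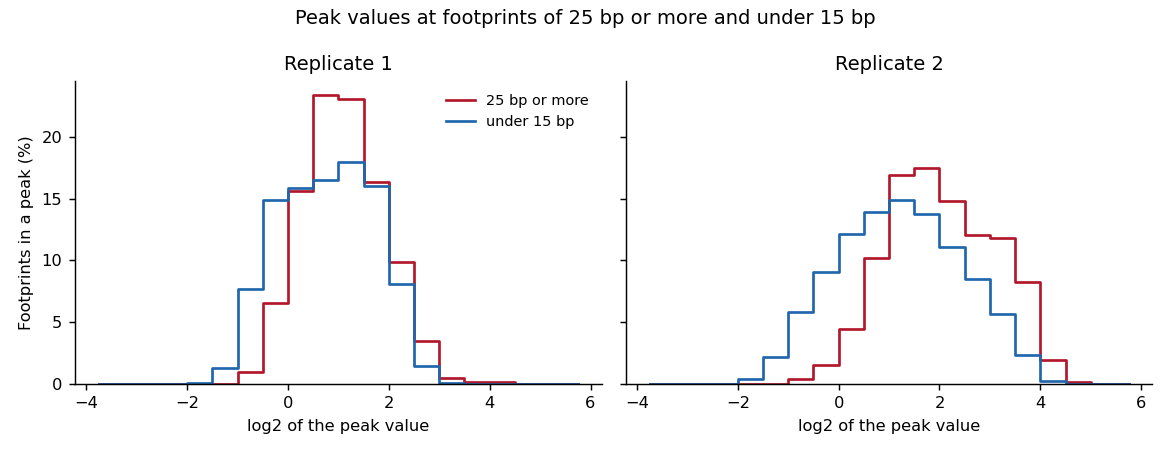
Distribution of the deposited peak value (log2) at wide (red) and short (blue) footprints that lay in a peak, for each library, in percent per 0.5 log2 units. The wide distribution is shifted to the right, with medians of 2.10 against 1.75 in replicate 1 and 3.92 against 2.33 in replicate 2.

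The libraries placed the ends of wide footprints alike in part. In replicate 1, 77.4% of members overlapped a footprint that was also wide in replicate 2. In replicate 2 the share was 43.0%, where 26.5% overlapped a footprint under 15 bp. Both ends lay within 2 bp of those in the other library for 38.4% of wide and 21.6% of short footprints in replicate 1, and for 22.3% of wide and 31.6% of short ones in replicate 2. Identical ends were found for 6.30% and 3.5% of wide footprints. Members of 38 to 49 bp met a wide partner in 89.8% and 65.8%.

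The footprints that were wide in replicate 2 alone lay nearer to starts and held the core less often. Members of replicate 2 whose partner in replicate 1 was under 25 bp numbered 8282, and 51.5% of them lay within 500 bp of a start and 22.7% held a CTCF core. For the 6259 with a wide partner, the shares were 21.6% and 60.7%. The 1828 members of replicate 1 with a narrower partner had shares of 19.4% and 52.0%, and those with a wide partner 21.5% and 60.8%. Replicate 2 also had more peaks, 131518 against 61896 in replicate 1, and its depth in reads is unknown, as is that of replicate 1.

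Members just inside the threshold are set here beside footprints just outside it. Footprints of 25 and 26 bp held a CTCF core in 49.7% in replicate 1 and 27.4% in replicate 2, and those of 23 and 24 bp in 40.5% and 21.5%. Within 500 bp of a start lay 28.1% and 45.1% of the wider pair, and 32.4% and 51% of the narrower pair.

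A locus lay within 500 bp of a start of 4679 genes, which is 22.6% of the 20698 protein-coding genes of chromosomes 1 to 19 and 37.9% of the 12347 with a promoter peak in both libraries. A locus wide in both libraries lay there for 1359 genes. By nearest start, 9005 genes had at least 1 locus and 4870 of these had only 1. The median spacing of neighbouring loci was 42314 bp, and 14.6% of neighbours were under 200 bp apart.

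Some genes gathered many loci. Over all 16357 loci, 40.5% held a CTCF core and 36.5% lay within 500 bp of a start. Zfp516, a zinc finger gene, was nearest to 15 loci, of which 10 were wide in both libraries and 8 held a CTCF core. Ptma, which encodes the nuclear protein prothymosin alpha, had 13, of which 5 were near its start and 5 held a core. Jarid2, an accessory subunit of Polycomb repressive complex 2, Camta1, a calmodulin-binding transcription activator, Tmpo, a lamina-associated protein gene, and Sept9, a septin gene, had 12 each. Lsamp, a neuronal adhesion molecule, had 11 loci, 8 with a core, and Irf2bpl had 11, none with a core. Bahcc1 had 10. The loci of Jarid2 ranged in peak value between 1.14 and 17.5 in replicate 1 and between 1.40 and 20.6 in replicate 2. The nearest start is a position and does not show which gene a distal locus acts on.

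The widest loci that were wide in both libraries lay within 500 bp of a start in 6 of 8 cases. The longest, 69 bp, lay 380959 bp from the nearest start, that of Tlr4, a receptor of innate immunity, and all its bases were soft-masked as repeat. It was 69 bp in replicate 1 and 42 bp in replicate 2, with peak values of 3.32 and 1.01. After Ccdc66 at 68 bp came Leprot, a membrane trafficking gene, at 66 bp, Knl1, a kinetochore scaffold, at 64 bp, and Ctnna3, an alpha catenin, at 63 bp. Klrb1b, a natural killer cell receptor, had a locus of 63 bp at 16912 bp from its start. Fam228b and Fbh1, a DNA helicase gene, had loci of 62 bp at 0 bp and 5 bp from a start. The Fbh1 locus had peak values of 9.21 and 21.05.

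Gene lists differed in how many members had a wide footprint within 500 bp of a start. Of 18 housekeeping genes 11 had one, of 12 immediate early genes 7 and of 26 cytosolic ribosomal protein genes 13, against 22.6% of all genes and 37.9% of those with a promoter peak in both libraries. All of the genes in these 3 lists had such a peak. In bulk tissue, fewer cells of a type and weaker opening per cell cannot be told apart. Of 15 granule progenitor and hedgehog response genes 2 had one, of 19 of postmitotic granule neurons 1, of 16 of Purkinje cells 2, and of 12 of GABAergic interneurons and cerebellar nuclei 0. Promoter peaks in both libraries were at 13, 12, 12 and 5 of these genes. Of 16 glial genes 5 had one and of 16 cell cycle genes 4, with promoter peaks in both libraries at 10 and 16 of these genes. Of 12 liver genes, none of which had a promoter peak in both libraries, 0 had a wide footprint there. Of 12 skeletal muscle genes 1 had one, at Mylpf, a myosin light chain gene, wide in replicate 2 alone, with peak values of 2.76 and 6.16. A short footprint lay within 500 bp of a start for 94.4% of housekeeping, 100% of immediate early and 80.8% of ribosomal protein genes. Of all genes 48.5% had a short one, so the excess in these 3 lists was not particular to wide footprints.

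Of all 5963 loci within 500 bp of a start, 77.3% were wide in 1 library alone, as were those of the granule and Purkinje cell genes. Mycn, the hedgehog-driven proliferation factor of granule cell progenitors, had a locus of 27 bp, wide in replicate 2 alone, 71 bp from a start, with peak values of 0.748 and 1.74. Gli2, a transcription factor of the hedgehog response, had one of 28 bp, wide in replicate 2 alone, with 2.12 and 3.37. Tiam1, a Rac exchange factor of migrating neurons, had one of 39 bp at 456 bp, with 3.94 and 10.8. Foxp2, a transcription factor of Purkinje cells, had one of 26 bp, wide in replicate 2 alone, and Dab1, an adaptor of reelin signalling, one of 25 bp, wide in replicate 1 alone.

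Among glial genes, Sox9 had a locus of 30 bp and Fabp7 loci of 28 bp and 26 bp, all wide in replicate 2 alone. Vim, the intermediate filament vimentin, had one of 28 bp that was 25 bp wide in replicate 1 and 28 bp in replicate 2. Pdgfra, the receptor of oligodendrocyte precursors, had one of 40 bp with an exact CTCF core, 436 bp from a start and wide in replicate 1 alone, with peak values of 1.69 and 2.78.

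In the cell cycle list, Ccne1, which encodes cyclin E1, had 3 loci, of 44, 37 and 25 bp, at 38, 97 and 177 bp from a start, and the middle one was wide in both libraries. The peak over them had a value of 5.15 in replicate 1 and 11.1 in replicate 2. Top2a, a topoisomerase of dividing cells, had 2 loci, Mcm5, a subunit of the replicative helicase, 1 and Ccna2, which encodes cyclin A2, 1, all wide in replicate 2 alone.

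Of the housekeeping genes, Actb had 3 loci and Gapdh 2, all wide in replicate 2 alone. Ppia had one of 25 bp wide in both libraries, and Rplp0, a ribosomal stalk protein, one of 40 bp that was 40 bp in both, with peak values of 7.62 and 14.6. Jun, a subunit of the AP-1 factor, had 3 loci, of 35, 34 and 31 bp, 19, 78 and 201 bp from a start, all wide in replicate 2 alone. Fosb had 2 and Junb 1, also wide in replicate 2 alone. Of 2 loci at Egr1, the one 186 bp from a start was 30 bp in replicate 1 and 33 bp in replicate 2, and the other was wide in replicate 2 alone. Rpl5 had a locus of 47 bp and Rpl7 one of 36 bp, both wide in both libraries, while those of Rpl3, 40 bp, and Rpl13, 25 bp, were wide in 1.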

How the data were processed

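DNase-seq of 2 libraries of P4 cerebellum was used, as footprint and peak lists per library on the mm10 assembly, per the labels. The authors deposited footprints as intervals with a constant score of 0.01, and their positions alone were analysed. Peaks carry a signal that the authors deposited as a normalised value; its other statistics are -1 and were not used. The false discovery rate of the cut rate, deposited as a q-value per interval, was not used in any calculation. The aligner and the peak and footprint callers were not given in the sources used here, and depth in reads is unknown, so no counting interval was computed.

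Footprints were compared with Python 3.11.15, numpy 2.4.6 and pandas 2.3.3. Starts, exons and introns came from GENCODE M21 protein-coding transcripts, and sequence from the RefSeq copy of the same assembly. Wide footprints were 25 bp or more and short ones under 15 bp, both overlapping a footprint of the other library by at least 1 bp. Consensus sequences were searched exactly on both strands of 51 bp windows; the CTCF core was also searched with 1 and with 2 mismatches. Loci are overlapping wide footprints of both libraries merged. Overlaps, distances and searches were tested on simulated data. The members, gene lists and searches were chosen with earlier results of these data known. Named genes were the 10 with most loci by nearest start, of which 1 is not reported here, the genes of the 8 widest loci wide in both libraries, up to 4 genes of each list with a locus within 500 bp of a start, and the widest locus of each consensus. Alternatives were other widths, overlaps, windows, start definitions, peak lists and each library alone.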

Additional observations from a re-analysis of the deposited data

How the results depend on the processing

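No paired analysis was possible because the 2 libraries form 1 group and no second group shares their replicate numbers; wide and short footprints were compared within each library. Of 74 alternatives over 10 results that kept both libraries, 58 moved a mean by less than 1 SD of the 2 libraries or a count by less than 1.5 times, a wide margin at n = 2. In 14 of the 74 the 2 libraries had opposite signs, and most of these 14 were among the 58. An example is GC in the 51 bp window, with differences of -3.43 and 0.13 points in replicates 1 and 2. The number of wide footprints, 11311 per library, became 5952 at 30 bp or more, 17952 at 20 bp or more and 6256 where the partner also had to be wide. The lower GC of wide footprints turned to a mean of 0.97 percentage points higher with all short footprints, overlapping or not, from -2.17 and 4.11 points in replicates 1 and 2. Over 1000 bp from starts it turned to 0.85 higher. Likewise CpG turned to means of 0.47 and 0.53 per 100 bp higher, the first from -1.24 and 2.18 in replicates 1 and 2. In replicate 2 the start difference turned to 11.96 points with all short footprints and to 0.78 at 20 bp or more, and the intergenic difference to -2.47 with all short footprints. The CTCF difference in exact matches was 2.88 points near starts and became 38.3 with 1 mismatch and 44.1 with 2. The log2 peak ratio was 1.47 with all short footprints, and 0.017 and 0.677 in replicates 1 and 2 with the stricter peak list. The soft-masked difference was -1.50 points with a wide partner, -1.78 with all short footprints and -1.85 far from starts. Ends within 2 bp were found for 48.1% of members with a wide partner. Genes with a wide footprint at a start fell to 1359 with a wide partner. Leaving out each replicate in turn gave 1698 to 4439 genes, the lower without replicate 2, 8081 to 14541 members, GC differences of -4.87 to -0.84 points, CpG differences of -2.32 to -0.20, CTCF differences of 13.4 to 22.2, start differences of -29.3 to -4.59, intergenic differences of 4.25 to 18.2, peak ratios of 0.26 to 0.75, shared ends of 22.3% to 38.4% and soft-masked differences of -0.84 to -0.10. The mismatch settings and the single-library gene and end values were chosen after seeing the data.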

Other observations

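The widest footprint of replicate 1, 76 bp and without an overlap in replicate 2, was at chr9:3019048-3019123, nearest to Gm10719. All its bases were soft-masked as repeat, 31.6% were G or C, and its peak value was 177. Footprints of 25 bp or more without an overlap in the other library, 142 in replicate 1 and 3456 in replicate 2, were soft-masked in 36.9% and 16.6% of bases, against 6.68% and 7.08% of the bases of overlapping ones. A CTCF core of at most 1 mismatch was in 19.7% and 24.45% of their windows. On the sex chromosomes, outside the set described above, 127 and 311 footprints of 25 bp or more lay on X and 2 and 1 on Y.

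Of the members of 50 bp or more, 18 in replicate 1 and 132 in replicate 2, 66.7% and 57.6% lay within 500 bp of a start, and their median peak values were 5.03 and 8.20.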
